A study of Mus musculus with 4 samples.

Results

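The 8 genes described here, Ms4a1, Bank1, Fcmr, Spib, Pou2af1, Mzb1, Jchain and Xbp1, mark late B-lineage cells and antibody-secreting plasma cells, and they were taken by their symbols from the 27998 genes counted in single bone marrow LSK cells. The set was chosen by name with earlier results of these libraries in view, that is, it was selected on the level of these genes by kind of cell and on their difference between Nup358 knockout and control, so levels and differences of the 8 genes are given as descriptions. The calls of a fit over all genes are named only as counts beside the share of all genes called.

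Late in B-cell development a cell puts Ms4a1 (CD20), the scaffold protein Bank1 that acts in B-cell receptor signalling, and Fcmr, a receptor for IgM, on or under its membrane. The transcription factor Spi-B and Oca-B, the octamer coactivator encoded by Pou2af1, act in B cells, and Spib is also a gene of plasmacytoid dendritic cells. When a B cell turns into a plasma cell, Xbp1 drives expansion of the secretory apparatus, Mzb1 helps antibody chains fold and assemble in the endoplasmic reticulum, and Jchain joins IgM and IgA into polymers, while Ms4a1 and Spib are lost.

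LSK cells are the Lin-Sca1+cKit+ fraction of bone marrow, which holds stem cells and multipotent progenitors, and the sort is meant to leave out mature cells. Mice of the control group were Nup358 fl/fl, labelled wild-type, and those of the knockout group Nup358 fl/fl CreERT2, in which a tamoxifen-regulated Cre is expressed from the R26 locus in all tissues. Both genotypes thus carried the floxed alleles. Tamoxifen was given on 3 consecutive days to mice of 9 to 12 weeks. Whether the sequenced control mice had tamoxifen, and the time from tamoxifen to harvest for these libraries, are not in the labels. Each genotype had 2 libraries, each from 3 pooled bone marrows, counted by 10x 3′ sequencing in unique molecular identifiers (UMIs), and p-values measure the spread between these pools.

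Ms4a1, Bank1, Fcmr and Spib were highest in the mature B-like cells described below, and Pou2af1, Mzb1, Jchain and Xbp1 in a cluster called Jchain-high. The promoters of 6 of them are shown so that genes led by the same cells can be compared, 3 of the first group and then 3 of the second, from 250 bases before to 50 after the RefSeq start site in GRCm38.p6. Capitals mark, on either strand, GAGGAA (the core bound by ETS factors of the PU.1 and Spi-B kind) and CCACG (the end of the endoplasmic reticulum stress element). The octamer ATTTGCAT and the whole endoplasmic reticulum stress element were searched too, the latter containing CCACG.
Fcmr, chr1:130865527-130865826, + strand: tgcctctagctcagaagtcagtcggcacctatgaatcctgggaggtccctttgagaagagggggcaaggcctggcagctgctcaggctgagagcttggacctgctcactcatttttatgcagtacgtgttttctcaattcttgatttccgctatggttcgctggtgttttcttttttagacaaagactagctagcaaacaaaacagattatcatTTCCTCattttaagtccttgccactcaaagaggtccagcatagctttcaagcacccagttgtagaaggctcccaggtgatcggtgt
Bank1, chr3:136326017-136326316, - strand: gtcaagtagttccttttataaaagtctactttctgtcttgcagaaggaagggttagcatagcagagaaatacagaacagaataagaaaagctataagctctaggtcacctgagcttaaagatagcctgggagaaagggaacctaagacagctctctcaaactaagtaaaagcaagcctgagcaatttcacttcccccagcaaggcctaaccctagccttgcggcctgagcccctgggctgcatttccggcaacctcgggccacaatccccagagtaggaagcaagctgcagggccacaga
Spib, chr7:44532022-44532321, - strand: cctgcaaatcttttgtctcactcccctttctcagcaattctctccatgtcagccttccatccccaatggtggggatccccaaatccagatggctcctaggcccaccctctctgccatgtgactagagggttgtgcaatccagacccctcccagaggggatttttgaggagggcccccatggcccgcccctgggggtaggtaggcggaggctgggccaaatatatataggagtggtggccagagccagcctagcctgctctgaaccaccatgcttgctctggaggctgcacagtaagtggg
Pou2af1, chr9:51213440-51213739, + strand: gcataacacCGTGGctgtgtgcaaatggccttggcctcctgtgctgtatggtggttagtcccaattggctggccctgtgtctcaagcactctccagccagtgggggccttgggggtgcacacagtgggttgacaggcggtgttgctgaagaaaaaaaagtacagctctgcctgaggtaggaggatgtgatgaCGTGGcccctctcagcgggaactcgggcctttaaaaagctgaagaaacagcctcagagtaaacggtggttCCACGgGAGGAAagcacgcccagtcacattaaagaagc
Jchain, chr5:88527848-88528147, - strand: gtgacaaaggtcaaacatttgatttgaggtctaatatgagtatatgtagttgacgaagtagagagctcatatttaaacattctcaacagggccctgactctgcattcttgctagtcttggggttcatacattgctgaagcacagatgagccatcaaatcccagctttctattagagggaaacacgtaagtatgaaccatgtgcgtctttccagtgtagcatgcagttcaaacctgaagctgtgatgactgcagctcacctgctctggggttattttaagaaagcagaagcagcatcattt
Xbp1, chr11:5520391-5520690, + strand: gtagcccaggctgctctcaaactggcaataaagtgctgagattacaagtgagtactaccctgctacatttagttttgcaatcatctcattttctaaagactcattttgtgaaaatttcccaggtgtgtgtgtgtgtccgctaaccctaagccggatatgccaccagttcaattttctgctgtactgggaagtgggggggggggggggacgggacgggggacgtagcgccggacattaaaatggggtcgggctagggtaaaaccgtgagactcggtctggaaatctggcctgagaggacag
Pou2af1 held 1 GAGGAA and 3 CCACG, with 1 CCACG ending 1 base before the GAGGAA, Fcmr held 1 GAGGAA, and the windows of Bank1, Spib, Jchain and Xbp1 held none of the 4 motifs. Ms4a1 and Mzb1 had no entry. Among 32851 RefSeq promoters of this length, 28.3% held GAGGAA, 32.8% CCACG, 1.74% the octamer and 0.119% the whole stress element. So both matched motifs are common, and a match or its absence is a description of these letters only.

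In GRCm38 the genes lie at chr19:11249675-11266241 (Ms4a1, - strand), chr3:136053363-136326066 (Bank1, - strand), chr1:130865669-130880791 (Fcmr, + strand), chr7:44525993-44532071 (Spib, - strand), chr9:51213708-51240080 (Pou2af1, + strand), chr5:88519809-88527891 (Jchain, - strand) and chr11:5520659-5525893 (Xbp1, + strand). Mzb1 overlaps Spata24 on the same strand, so reads of the shared stretch cannot be told apart. All counts are of 3′ ends and do not tell exons or introns apart.

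The deposited matrices held 25242 barcodes and 176279375 UMIs, and a filter on genes detected (200 or more) and mitochondrial UMIs (10% or less) left 24973. Median UMIs per barcode ranged from 1035 in control replicate 2 to 11851 in knockout replicate 2. Barcode sequences recurred between libraries, 6680 of them in more than 1 library and 1138 in all 4. Where a sequence recurred with 3 times the UMIs or more elsewhere, the smaller barcode is called copied below. Copied barcodes made up 14.8 and 81.8% of the barcodes of control replicates 1 and 2, and 65.3 and 18.8% of those of knockout replicates 1 and 2, but held 1.61 to 24.6% of a library's UMIs. Whether they hold reads of the other library was not tested, and levels that rest on them may not be levels of the library they are counted in. Ranbp2, the gene of Nup358, had 127 and 106 counts per 1000000 UMIs (CPM) in control and 122 and 126 CPM in knockout libraries. Recombination removes an early exon, which 3′ counts do not cover, so this level does not check the labels.

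Clustering gave 22 clusters, and each of the 8 genes was highest in the mature B-like or the Jchain-high cluster. These, with the pro-B and pre-B-like and the plasmacytoid dendritic cell-like clusters, are called the 4 lymphoid clusters below. A T or NK cell-like cluster of 61 cells is not among them and is counted with the 18 others. A mature B-like cluster of 246 cells had all 13 mature B-cell markers at least 2-fold above the median of the other clusters, on CPM + 5. Ly6a, which encodes Sca1, had a UMI in 65.0% of its cells (95% exact interval 58.7 to 71.0%), at a median depth of 1309 UMIs. Its LSK identity was incomplete for Kit, which had a UMI in 1 of 246. A cluster of 221 cells led by Jchain had all 8 plasma-cell markers found in the files at least 2-fold up, but its 10 leading genes held none of that list and 3 of the mature B list, so it is called Jchain-high and not by a cell type. Ly6a had a UMI in 91.9% of the Jchain-high cells and Kit in 19.0%. The others were a pro-B and pre-B-like cluster of 365 cells with all 10 of its markers up and a plasmacytoid dendritic cell-like cluster of 268 cells with all 9 up. In these clusters Ly6a had a UMI in 30.4 and 58.6% of cells, and Kit in 10.4 and 28.0%. Among neutrophil-like cells, at a median depth of 7373 UMIs, Ly6a had a UMI in 29.5% and Kit in 33.1%. The Ly6a share of the mature B-like cells was thus below that of the Jchain-high cells and not below the others given here. Their Kit share (0.407%) was below all the others. Among these were the pro-B and pre-B-like cells, which had a near median depth of 1311 UMIs. Intervals and limits on shares cover counting error only.

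The membrane and signalling genes were carried by the mature B-like cells (the heat map of levels by kind of cell). Ms4a1 stood at 1671 CPM there with the libraries pooled. It was at 35.5 CPM in Jchain-high and 26.1 CPM in plasmacytoid dendritic cell-like cells, an order that does not hold beyond the spread of libraries, since the lowest Jchain-high library had 27.5 CPM and the highest plasmacytoid library 29.3. The 18 clusters outside these lymphoid ones reached at most 1.23 CPM of Ms4a1.
Bank1 followed the same order in pooled levels, with 681 CPM in mature B-like, 19.2 in Jchain-high and 16.1 in plasmacytoid dendritic cell-like cells. The latter levels rest on 32 UMIs each, and their order does not hold beyond the spread of libraries either. Unlike Ms4a1, Bank1 kept a low level in unnamed progenitors, 0.775 CPM, where 90 of its 474 UMIs (19.0%) lay. Fcmr was at 706 CPM in mature B-like and 49.3 CPM in Jchain-high cells. No Fcmr UMI was found in 365 pro-B and pre-B-like cells, which allows a share of up to 0.822% with a UMI by 3 counts of the total, or up to 1.01% by the exact interval. Of these barcodes 58.9% were copied, so the number of distinct cells is smaller and the limits are too low.

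**Figure D1:**
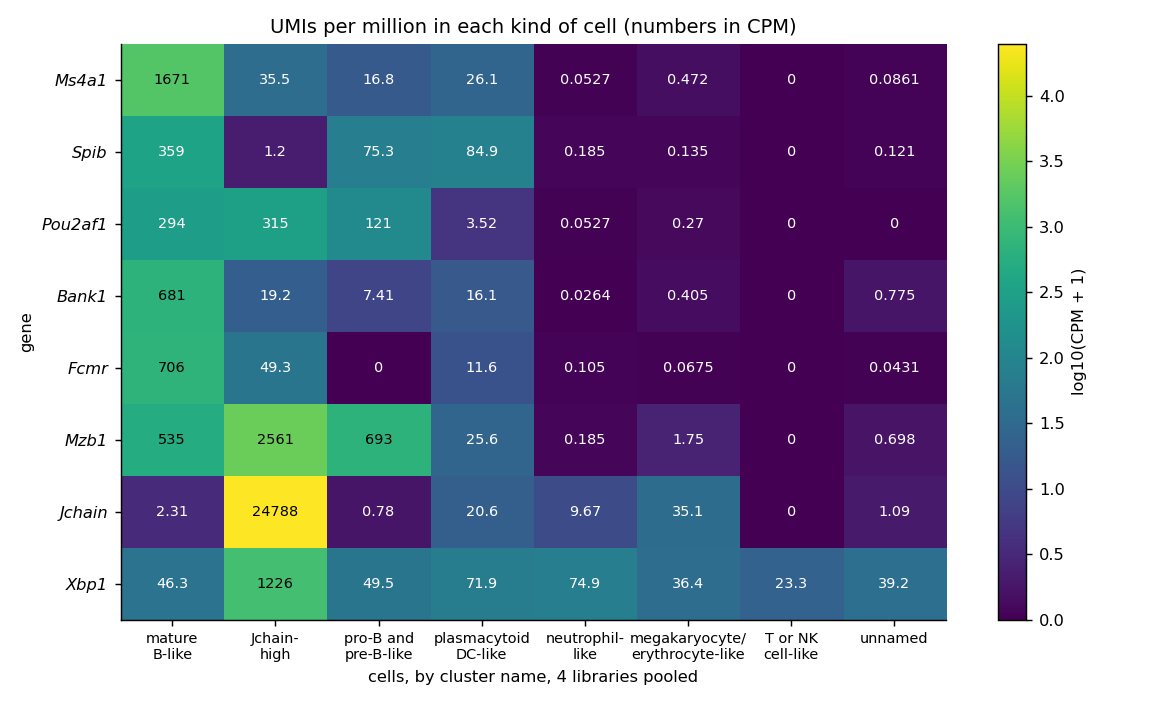
Level of each gene (rows) in each kind of cell (columns), in CPM with the 4 libraries pooled; colour is log10(CPM + 1) and the number is the CPM. Ms4a1, Bank1 and Fcmr peak in mature B-like cells (1671, 681 and 706 CPM), Mzb1, Jchain and Xbp1 in the Jchain-high cluster, and only Xbp1 is above 20 CPM in every kind of cell.

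The transcription factor genes divided differently. Spib had 359 CPM in mature B-like cells, followed by 84.9 CPM in plasmacytoid dendritic cell-like and 75.3 CPM in pro-B and pre-B-like cells. The latter 2 levels overlapped between libraries. Jchain-high cells had 2 Spib UMIs in 221 cells, or 1.20 CPM. Pou2af1 had 315 CPM in Jchain-high and 294 CPM in mature B-like cells, and these overlapped too (246 to 348 CPM in the 2 knockout libraries of the mature B-like cells, 276 to 431 in the 4 libraries of the Jchain-high cells). Pou2af1 was at 121 CPM in pro-B and pre-B-like cells and had no UMI in the unnamed clusters.
Xbp1 was the only one of the 8 genes present throughout. It reached 1226 CPM in Jchain-high cells and 22.1 to 92.8 CPM in the 18 clusters outside the 4 lymphoid ones, with the highest of these in a neutrophil-like cluster.

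The secretory genes peaked in the Jchain-high cluster. Mzb1 had 2561 CPM there, 693 CPM in pro-B and pre-B-like and 535 CPM in mature B-like cells. Jchain had 24788 CPM, and this cluster held 97.5% of all its UMIs, against 1 UMI in 246 mature B-like cells.
Of the 1058 Jchain UMIs outside, 780 (73.7%) were in 2 barcodes. One was a barcode of 54914 UMIs in knockout replicate 2, placed with megakaryocyte and erythrocyte-like cells, with 457 Jchain UMIs, and its sequence recurred in the other libraries with 27, 14 and 9 Jchain UMIs. The other was a neutrophil-like barcode of 28729 UMIs in control replicate 1 with 323 Jchain UMIs. A further 104 of the 123 cells concerned had 1 UMI each. Whether these 2 barcodes held more than 1 cell was not tested.

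Across the 22 clusters several of the genes had similar patterns, though not similar levels. On log2(CPM + 5), Ms4a1 and Bank1 had a Pearson r of 0.993, Bank1 and Fcmr 0.969, and Fcmr and Ms4a1 0.962. Mzb1 and Pou2af1 had 0.981, Ms4a1 and Spib 0.876, and Jchain and Xbp1 0.858. Jchain and Spib had -0.03. Apart from Jchain (1.68 CPM) and Xbp1 (41.1 CPM), the genes had medians over the clusters of 0 to 0.579 CPM. With 5 CPM added, their r values thus rest mostly on the few lymphoid clusters. The clusters also share libraries, depth and many genes, so these values only describe likeness. Genes outside the 8 with the most similar pattern were Cd40 (0.984) for Ms4a1, Irf4 (0.965) for Pou2af1, Lgr5 (0.967) for Spib, Trim7 (0.977) for Fcmr, Cpeb3 (0.930) for Jchain and Prg2 (0.943) for Xbp1.

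A UMI of Ms4a1 was found in 280 cells, of which control replicates 1 and 2 had 4 and 13, and knockout replicates 1 and 2 had 107 and 156. These were 0.0435, 0.191, 2.25 and 3.69% of the cells, and both knockout libraries were above both controls. The difference of the means was 2.85 percentage points, and the exact two-sided permutation test gave p = 0.333, the smallest that 2 against 2 libraries can give. With every cell thinned to 1000 UMIs, which left out 7091 shallower cells, the shares were 0, 0.0563, 2.58 and 2.11%. Without copied barcodes they were 0.0383, 0.583, 6.36 and 4.56%. Among neutrophil-like cells, which should lack the gene, 2 of 4347 (0.0460%) had an Ms4a1 UMI at a median depth of 7373 UMIs, against 1939 in the 280 cells. Both were in knockout replicate 1, where they made 2 of 494 neutrophil-like cells (0.405%, interval 0.0491 to 1.45%) at a median depth of 1372.
Most of the 280 cells were mature B-like (193, or 68.9%), 33 were Jchain-high, 21 plasmacytoid dendritic cell-like and 19 pro-B and pre-B-like. Bank1 had a UMI in 51.1% of them (interval 45.1 to 57.1%), Fcmr and Mzb1 in 54.6% each, Pou2af1 in 42.1%, Spib in 31.8%, Xbp1 in 21.1% and Jchain in 11.8%. Cd79a, a B-cell receptor subunit, was found in 93.2% of them and Kit in 15.4%. Leaving these cells out therefore took away B-lineage cells mainly, but also a part of the Jchain-high cluster, 33 of 221. A UMI of Ms4a1 was seen in 193 of the 246 mature B-like cells (78.5%, interval 72.8 to 83.4%), so some cells of that cluster remained.

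Summed over all cells of a library, the 3 membrane and signalling genes were nearly absent from control libraries and present in knockout libraries (the plot of levels by library). Ms4a1 had 0.0830 and 0.719 CPM in control replicates 1 and 2, and 10.6 and 9.01 CPM in knockout replicates 1 and 2. Bank1 had 0.249 and 0.959 CPM in controls, and 6.09 and 3.97 CPM in knockouts. Fcmr had 0.116 and 0.439 CPM in controls, and 4.72 and 4.26 CPM in knockouts.
For each of these 3 genes the groups did not overlap. The fitted log2 difference, knockout minus control, was 4.99 ± 0.62 (SE) for Ms4a1, 3.24 ± 0.55 for Bank1 and 4.26 ± 0.48 for Fcmr. The size depended on the controls: without control replicate 1 these were 3.71, 2.32 and 3.29, and without control replicate 2 they were 6.82, 4.29 and 5.22. Without copied barcodes they were 5.63, 3.73 and 4.89.

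Spib and Pou2af1 showed the same direction. Spib had 0.183 and 0.479 CPM in controls, and 4.33 and 6.65 CPM in knockouts, a log2 difference of 4.23 ± 0.45. Pou2af1 had 52 and 65 UMIs in controls, and 337 and 521 UMIs in knockouts, of which the latter are 9.41 and 9.52 CPM and the control mean is 1.73 ± 1.23 CPM (SD, n = 2), a log2 difference of 2.55 ± 0.44. Neither gene's groups overlapped. Without control replicate 1 the log2 differences of Spib and Pou2af1 were 3.47 and 1.81, and without control replicate 2 they were 4.88 and 3.43. Without copied barcodes they were 5.05 and 3.25.
Mzb1 had 4.81 and 21.7 CPM in controls, and 67.5 and 58.1 CPM in knockouts, and Jchain had 54.5 and 177 CPM in controls, and 469 and 324 CPM in knockouts. Their log2 differences were 2.25 ± 0.60 and 1.74 ± 0.50, which became 1.48 and 1.11 without control replicate 1, and 3.68 and 2.84 without control replicate 2. The groups did not overlap for either, but the controls differed from each other by a larger factor than the knockout libraries did. Without copied barcodes the log2 differences of Mzb1 and Jchain were 2.61 and 1.76.
Xbp1 was the exception, with 58.7 and 64.3 CPM in controls, and 68.2 and 49.1 CPM in knockouts. Its groups overlapped, and its log2 difference was -0.10 ± 0.17, or -0.15 without copied barcodes.

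**Figure D2:**
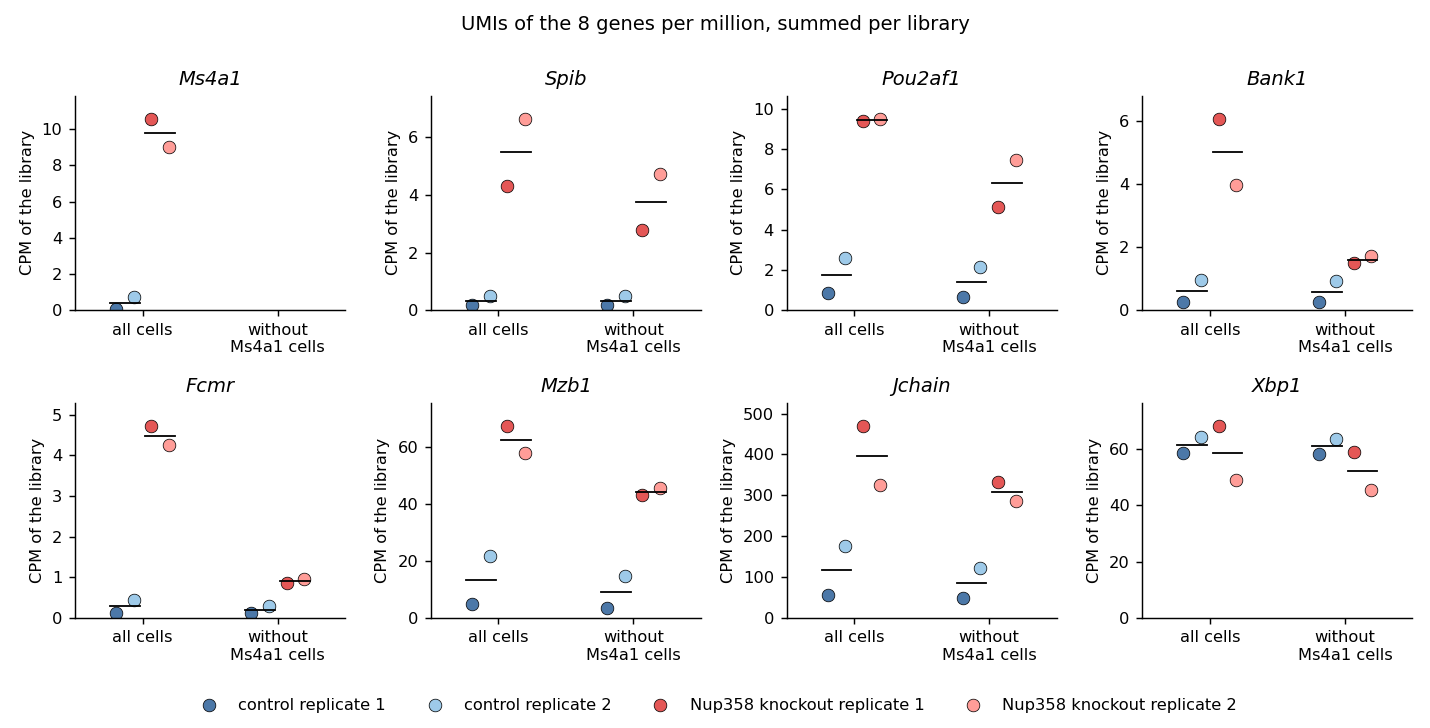
Level of each gene in CPM of the library, for all cells and with cells that have an Ms4a1 UMI left out; points are the 4 libraries and lines the means of 2 libraries. In 7 of 8 panels both knockout libraries lie above both controls over all cells, and Xbp1 overlaps (49.1 to 68.2 CPM).

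In the edgeR quasi-likelihood test with Benjamini-Hochberg adjustment over 13844 genes, Ms4a1, Spib, Pou2af1, Bank1 and Fcmr were called higher in knockout, that is 5 of the 8, where 0.910% of all genes tested were called higher. Mzb1 and Jchain were not called, and none of the 8 was called lower, where 2.09% of all genes were. Both knockout libraries were above both controls for 7 of the 8 genes and for 30.1% of all genes. Since the 8 genes were chosen with this contrast known, nothing is read from these counts. In sums over all cells, more cells of a kind and more RNA per cell cannot be told apart.

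With cells that had an Ms4a1 UMI left out, the fall was uneven among the genes. Bank1 and Fcmr lost most of the knockout level. Bank1 had 0.249 and 0.922 CPM in controls, and 1.49 and 1.73 CPM in knockouts, a log2 difference of 1.61 ± 0.56. Fcmr had 0.116 and 0.281 CPM in controls, and 0.858 and 0.965 CPM in knockouts, a log2 difference of 2.35 ± 0.49. Without control replicate 1 these were 0.76 and 1.65, and without control replicate 2 they were 2.67 and 2.94.
Spib kept more, with 0.166 and 0.481 CPM in controls, and 2.77 and 4.71 CPM in knockouts, a log2 difference of 3.73 ± 0.51. Pou2af1 had 0.648 and 2.16 CPM in controls, and 5.15 and 7.48 CPM in knockouts, a log2 difference of 2.28 ± 0.52. Without control replicate 1 these were 2.92 and 1.504, and without control replicate 2 they were 4.48 and 3.28. Without copied barcodes they were 4.61 and 3.25.
Mzb1 and Jchain hardly moved on the log2 scale. Mzb1 had 3.57 and 14.7 CPM in controls, and 43.1 and 45.8 CPM in knockouts (2.31 ± 0.57), and Jchain had 49.5 and 123 CPM in controls, and 333 and 285 CPM in knockouts (1.81 ± 0.39). Without control replicate 1 the log2 differences of Mzb1 and Jchain were 1.55 and 1.28, and without control replicate 2 they were 3.62 and 2.63. Xbp1 had 58.4 and 63.5 CPM in controls, and 58.9 and 45.6 CPM in knockouts, again with overlap (-0.25 ± 0.15).
Both knockout libraries stayed above both controls for 6 of the 7 remaining genes, as for 29.6% of all genes. Of these 7 genes 1, Spib, was called higher by edgeR, where 0.471% of 13803 genes were called higher. None was called lower, where 1.59% of genes were (2.06% in either direction). Other choices moved this count between 0 and 6.

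The cells that carried the difference can be read from the UMIs (the plot of where the UMIs of each gene lie). Of the knockout-minus-control difference of Ms4a1, in CPM of the whole library, 86.4% lay in the mature B-like cluster, as did 76.9% of that of Bank1 and 77.1% of that of Fcmr. In library means, the difference of Spib lay 32.0% in mature B-like, 33.1% in plasmacytoid dendritic cell-like and 30.7% in pro-B and pre-B-like cells. Neither knockout library was this even. In knockout replicates 1 and 2, Spib of pro-B and pre-B-like cells was 0.475 and 3.05 CPM of the whole library. That of mature B-like cells was 1.65 and 1.70 CPM, and that of plasmacytoid dendritic cell-like cells 1.95 and 1.66 CPM.
Pou2af1 had 50.6% of its difference in Jchain-high, 30.3% in pro-B and pre-B-like and 18.5% in mature B-like cells. Mzb1 had 65.8% in Jchain-high and 27.7% in pro-B and pre-B-like cells, and the difference of Jchain lay to 99.5% in the Jchain-high cluster.
The pro-B and pre-B-like part came from 1 library: there, Mzb1 stood at 27.3 CPM of the whole library in knockout replicate 2 and 4.47 CPM in knockout replicate 1, against 0.349 and 4.03 CPM in controls.

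**Figure D3:**
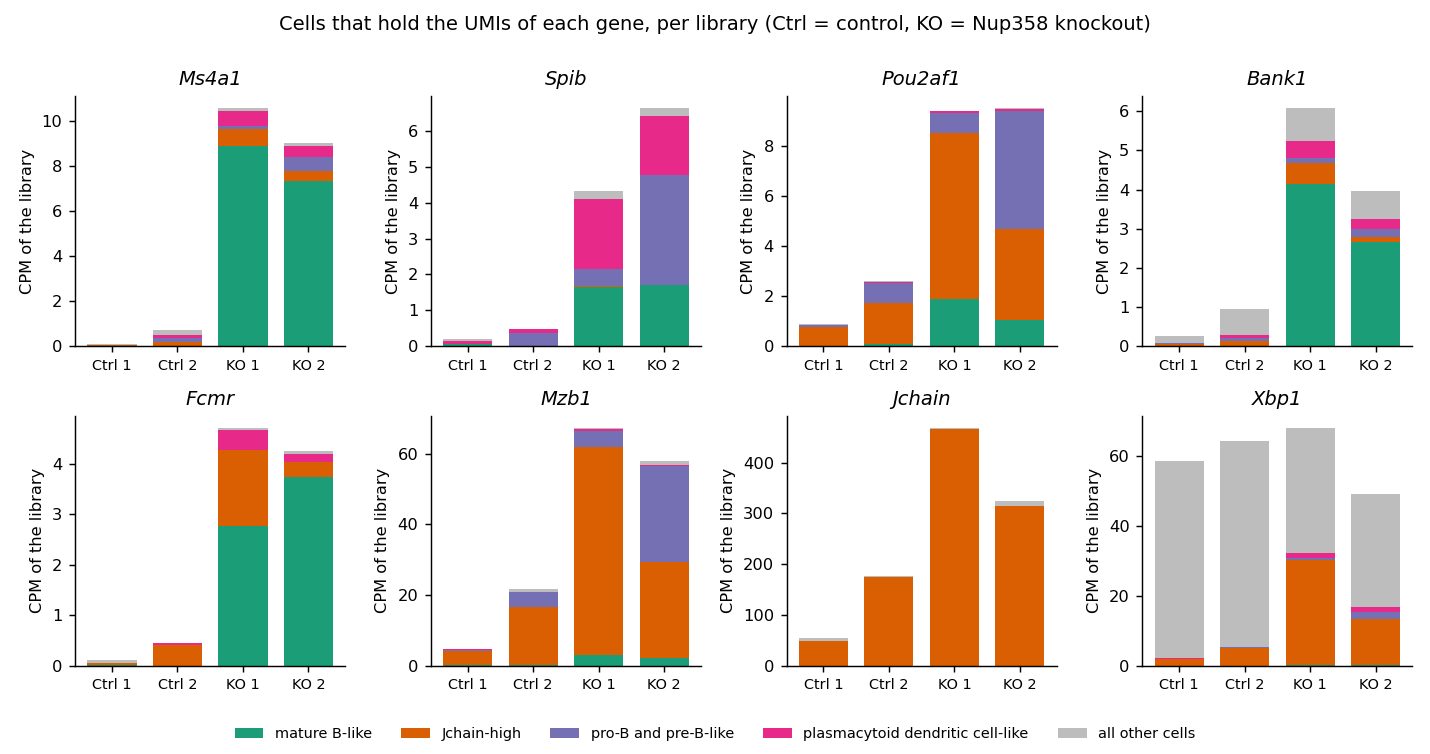
Level of each gene in CPM of the whole library, split by the cells that hold them, for each of the 4 libraries. Ms4a1, Bank1 and Fcmr of the knockout libraries lie mostly in mature B-like cells, Jchain in the Jchain-high cluster, and Xbp1 mostly in cells outside the 4 lymphoid clusters.

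When cells were clustered again without the 8 genes, the mature B-like cluster held 4, 2, 84 and 156 cells of control replicates 1 and 2 and knockout replicates 1 and 2, or 0.0435, 0.0294, 1.77 and 3.69% of each library. The Jchain-high cluster held 28, 48, 66 and 65 cells, or 0.304, 0.707, 1.39 and 1.54%. Other B-lineage genes still shaped these clusters, so the sizes are given without a test. Copied barcodes were 1 of 246 mature B-like cells. In the first clustering, 15, 6, 54 and 55 cells were left in the Jchain-high cluster once copied barcodes were removed.

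Whole clusters were left out as well (the plot of fitted differences). Without the mature B-like cluster the log2 difference was 2.40 ± 0.80 for Ms4a1, 1.57 ± 0.60 for Bank1 and 2.39 ± 0.88 for Fcmr, while those of Mzb1 (2.21 ± 0.60) and Jchain (1.75 ± 0.51) were near their values over all cells. Without the Jchain-high cluster that of Jchain was 0.35 ± 0.67. Those of Pou2af1 (3.42 ± 0.84), Mzb1 (2.96 ± 0.92), Fcmr (5.64 ± 0.39) and Ms4a1 (5.56 ± 0.67) were larger than over all cells, although that cluster held 50.6% of the difference in CPM of Pou2af1 and 65.8% of that of Mzb1. Those of Bank1 (3.41 ± 0.56) and Spib (4.25 ± 0.45) were near their values over all cells, and that of Xbp1 was -0.66 ± 0.11. There 4 of the 8 genes were called higher and 1, Xbp1, lower, beside 128 and 297 of all 13799 genes tested. Without all 4 lymphoid clusters, only Bank1, Mzb1, Jchain and Xbp1 passed the filter on low counts. Their log2 differences were 1.10 ± 0.60, 0.79 ± 0.72, 0.34 ± 0.68 and -0.70 ± 0.11. Of these Xbp1 was called, as lower in knockout, where 335 of all 13642 genes tested were called lower. These cluster removals, other than that of the mature B-like cluster alone, were chosen after the data were seen.

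**Figure D4:**
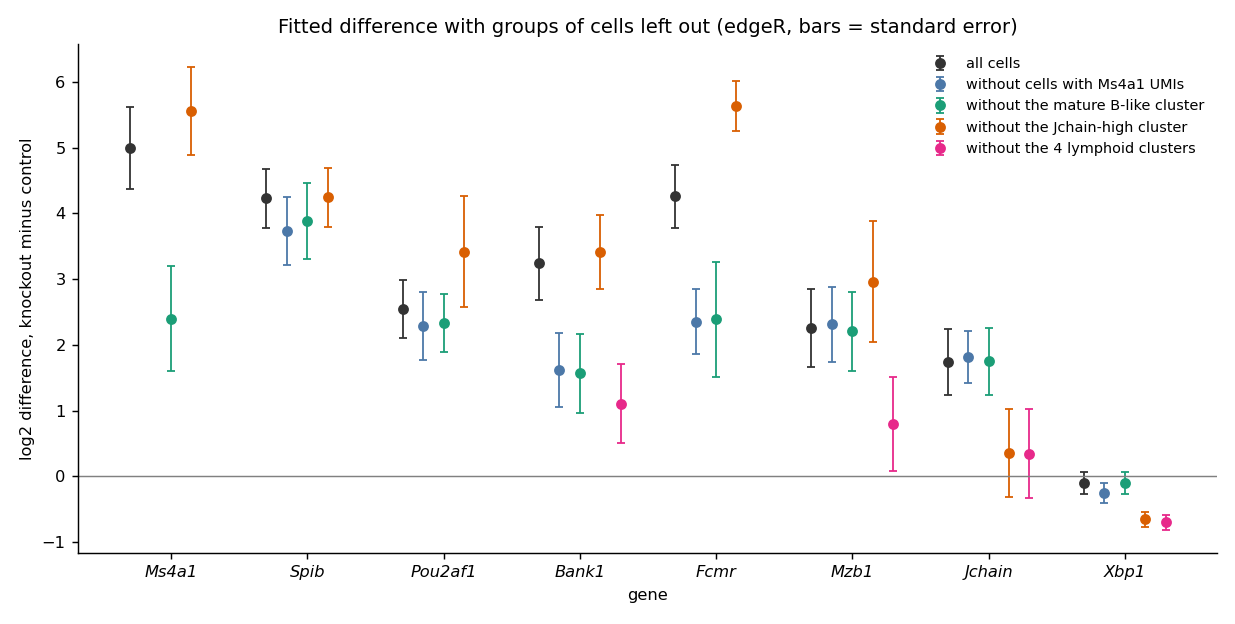
Fitted log2 difference, knockout minus control, of each gene with standard error bars, over all cells and with groups of cells left out; a missing point is a gene that is at 0 by construction or did not pass the filter on low counts. Jchain falls from 1.74 to 0.35 without the Jchain-high cluster, and Xbp1 from -0.10 to -0.70 without the 4 lymphoid clusters.

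Within clusters, the genotypes overlapped for most genes with enough UMIs. In mature B-like cells the controls had 5 cells in all, so no comparison was made, and the knockout libraries had 1633 and 1736 CPM of Ms4a1, 757 and 630 CPM of Bank1 and 507 and 885 CPM of Fcmr. In Jchain-high cells, Jchain had 26525 and 38856 CPM in controls, and 19472 and 29594 CPM in knockouts, and Mzb1 had 2293 and 3713 CPM in controls, and 2461 and 2536 CPM in knockouts. Both overlapped.
Pou2af1 was lower in both knockout libraries of that cluster, with 431 and 365 CPM in controls against 276 and 342 CPM. These control levels rest on few UMIs, 47 and 41. Without copied barcodes they were 497 and 547 CPM in controls, and 275 and 347 CPM in knockouts. The share of all genes without overlap in this cluster was not computed. Over all cells both knockout libraries were below both controls for 24.5% of all genes. A Jchain-high cell held a median of 17 and 19 Jchain UMIs in controls, and 136 and 196 in knockouts, beside a median depth of 1315 and 1254 UMIs in controls, and 4845 and 5197 in knockouts. The highest single barcode held 306 and 1406 Jchain UMIs in controls, and 1345 and 922 in knockouts. The Jchain level of control replicate 2 thus rests in part on a single barcode. Copied barcodes were 18 of 33 and 45 of 51 of these control cells, and 17 of 71 and 11 of 66 of these knockout cells, and in 17 of the 18 copied barcodes of control replicate 1 (11 and 6) and 43 of the 45 of control replicate 2 (27 and 16) the larger barcode was in a knockout library. The control levels of Jchain, Mzb1, Pou2af1 and Xbp1 in this cluster thus rest in part on barcodes shared with knockout libraries, and their part in these levels and in the depth was not tested.

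In pro-B and pre-B-like cells, the only cluster of early B-lineage cells, 4 of the 8 genes passed the filter on low counts. Mzb1 had 708 and 728 CPM in controls, and 548 and 710 CPM in knockouts (log2 difference -0.11 ± 0.20). Pou2af1 had 101 and 144 CPM in controls, and 99.4 and 123 CPM in knockouts (-0.16 ± 0.34). Of the control cells 3 of 31 and 18 of 110 had a Pou2af1 UMI, so this difference is uncertain. Spib rested on 0 and 9 UMIs in controls, and Xbp1 on 1 and 5, so their differences (0.55 ± 0.52 and 0.55 ± 0.61) are uncertain.
None of the 4 was called, and edgeR called 0% of 3338 genes (127 had an unadjusted p under 0.05, and DESeq2 called 0 with 22). The libraries of this cluster were not independent, since 29 of 31, 108 of 110, 74 of 84 and 4 of 140 barcodes were copied, and in 25, 99 and 73 of the first 3 sets the larger barcode was in knockout replicate 2. Without copied barcodes 2 cells were left in each control library, and the fit could not be made.

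With all barcodes kept, Xbp1 of the knockout libraries lay on opposite sides of the controls in different cells. In the Jchain-high cluster it had 1036 and 1131 CPM in controls, and 1255 and 1237 CPM in knockouts. Outside the 4 lymphoid clusters it had 56.9 and 59.8 CPM in controls, and 38.2 and 34.8 CPM in knockouts. Neither pair of groups overlapped, and the level over all cells joined both. The share of all genes without overlap in these cells was not computed.
In neutrophil-like cells Xbp1 had 77.3 and 94.3 CPM in controls, and 49.4 and 43.4 CPM in knockouts, and in the unnamed progenitors 41.8 and 50.3 against 36.5 and 34.7 CPM. In megakaryocyte and erythrocyte-like cells the libraries overlapped, at 32.3 to 39.0 CPM. Neutrophil-like cells joined 4 clusters and unnamed cells 11. The mix of these clusters differed between genotypes, and its part in the level of Xbp1 was not tested. Elane, a granule protease gene of early neutrophils, was lower beside Xbp1, at 4094 and 4181 CPM in neutrophil-like cells of controls, and 1072 and 1103 CPM in those of knockouts. Neutrophil-like cells were 25.1 and 18.4% of control cells, and 10.4 and 6.92% of knockout cells, and their part in the level of Xbp1 over all cells was not tested. Without copied barcodes 2216 and 171 neutrophil-like cells were left in controls (28.3 and 14.25%), and 128 and 118 in knockouts (8.06 and 3.45%). Xbp1 and Elane were not measured in neutrophil-like cells without copied barcodes. The log2 ratio of the level in Jchain-high cells to that outside the lymphoid clusters was 4.19 and 4.24 in controls, and 5.04 and 5.15 in knockouts. The difference of 0.88 had p = 0.333 in the exact two-sided permutation test, the smallest possible. Without copied barcodes the Jchain-high levels overlapped (1124 and 1616 CPM in controls, 1261 and 1250 CPM in knockouts) and their log2 difference turned to -0.10, the same sign as the -0.77 outside the lymphoid clusters, where the groups did not overlap.

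**Figure D5:**
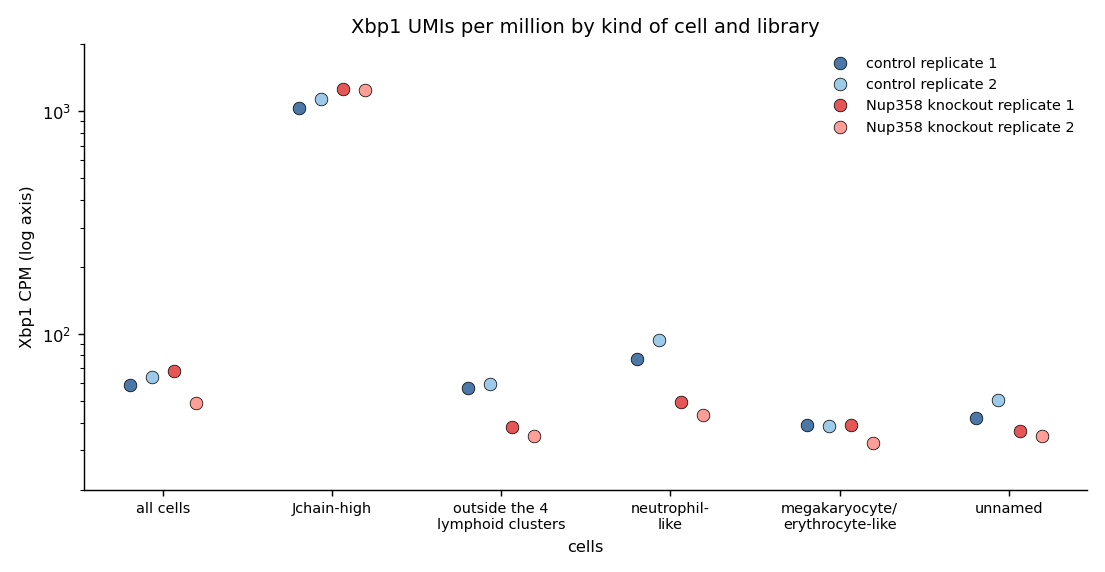
Xbp1 in CPM by kind of cell, on a log axis, each point a library. The knockout libraries lie above the controls in Jchain-high cells (1237 and 1255 against 1036 and 1131 CPM) and below them outside the 4 lymphoid clusters.

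Other genes of the program were taken from lists drawn up beside the 8 genes. These lists too were chosen with earlier results of these data known, so nothing is read from their counts. Of 23 B-cell program genes, all tested, 10 were called higher by edgeR over all cells and 0 lower, where 0.910% and 2.09% of all genes were, with a median log2 difference of 1.75 against -0.0078 over all genes tested. Genes with the smallest p were the antigen presentation genes H2-Eb1 (1.64 ± 0.11), H2-Aa (1.60 ± 0.12) and Cd74 (1.80 ± 0.15), which other antigen-presenting cells also use, and Blk, a kinase of B-cell receptor signalling (2.64 ± 0.36). Without cells that had Ms4a1 UMIs, 3 of 22 were called higher, H2-Eb1, H2-Aa and Cd74 again, where 0.471% of all genes were. The tetraspanin gene Cd37 was called lower (-0.67 ± 0.12), and the median was 1.20. In pro-B and pre-B-like cells 0 of 13 tested were called, as were 0 of all 3338 genes. Most barcodes of both controls and of knockout replicate 1 were copied there, so this count cannot show that levels were alike.
Of 14 transcription factor genes of late B and plasma cells, 0 were called higher and 2 lower over all cells, Irf8 (-1.27 ± 0.23) and Spi1 (-0.70 ± 0.13), which also act in myeloid cells, where 2.09% of all genes were called lower. Of the 14, 10 had a difference above 0, and the share of all genes above 0 was not computed. Among the 10 were Ebf1 (3.29 ± 0.88), Pax5 (3.28 ± 0.87) and the plasma-cell factors Irf4 (2.64 ± 0.52, adjusted p = 0.0508 by edgeR) and Prdm1 (2.22 ± 0.45, adjusted p = 0.0522). Pou2f2 (-0.70 ± 0.17) and Bcl6 (-0.83 ± 0.27) lay below 0, as did Irf8 and Spi1. Apart from Irf8 and Spi1, these were not called and were named after their values were seen. None of the 14 was called without Ms4a1 cells. The list's medians were 0.35 and 0.31, against -0.0078 and -0.0062 over all genes tested.
Of 34 genes of the unfolded protein response and secretion, 1 was called higher over all cells, Txndc5, a protein disulfide isomerase (0.74 ± 0.14), where 0.910% of all genes were, and none without Ms4a1 cells. Their medians were -0.11 and -0.12, near that of all genes. In pro-B and pre-B-like cells none of 10 transcription factor genes tested and none of 25 secretion genes tested was called, with the same limit from copied barcodes.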

How the data were processed

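Bone marrow LSK cells were counted in 4 libraries, 2 per genotype, grouped by their labels. The deposited matrices hold counts of UMIs per gene and barcode, which the authors made with Cell Ranger 3.1 on mm10, as raw counts with no further scaling. Intronic or strand settings are not given in the sources used here. Totals were 25111828 to 60330267 UMIs per library.

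Barcodes under 200 genes or over 10% mitochondrial UMIs were removed (269), and no doublets were called. Cells were clustered with scanpy 1.11.5 (10 principal components, 2000 variable genes, 15 neighbours, Leiden resolution 1) and clusters were named from marker lists. Sums of UMIs by library went into edgeR 4.0.16 in R 4.3.3 (quasi-likelihood, TMM, filter on low counts, Benjamini-Hochberg adjustment over all genes, threshold 0.05). Standard errors were derived from the quasi-likelihood F statistic. The test was checked on simulated counts. CPM are UMIs per 1000000 UMIs of the kept cells concerned. Shares of cells have exact Clopper-Pearson intervals.

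The members, marker lists and gene lists were chosen with earlier results of these data known. The 8 genes were named in every result, and list genes only past the threshold (at most 4 per list and direction, by p). Irf4, Prdm1, Pax5, Ebf1, Pou2f2 and Bcl6 are exceptions to this rule, named after their values were seen. For likeness the 3 genes with the highest r per member were computed, over genes of at least 50 UMIs. Alternatives were DESeq2 1.42.0, no filter, at least 500 genes per cell, another clustering resolution, blocks, copied barcodes left out, and each library left out. Alternatives chosen after seeing the data left out the 4 lymphoid clusters or the Jchain-high cluster, clustered cells without the 8 genes, and took copied barcodes out of the Xbp1 ratio. Promoters are from RefSeq on GRCm38.p6 and gene positions from GENCODE on GRCm38.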

Additional observations from a re-analysis of the deposited data

Results flagged for a closer look

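With all barcodes kept, Xbp1 differed between genotypes in opposite directions in different kinds of cell. The mean of the knockout libraries minus that of the controls was 162 CPM in Jchain-high cells, -39.4 CPM in neutrophil-like cells and -10.4 CPM in the unnamed clusters, and in each of these both knockout libraries lay on the same side of both controls. The share of all genes that did so within a kind of cell was not computed. Over all cells, both knockout libraries were above both controls for 30.1% of all genes and below them for 24.5%. The difference between neutrophil-like or unnamed cells and Jchain-high cells was not tested by itself. Neutrophil-like cells joined 4 clusters and unnamed cells 11, and the mix of these clusters differed between genotypes. One unnamed cluster had 1857 and 540 cells in controls, and 95 and 83 in knockouts. Another had 259 and 73 cells in controls, and 329 and 1064 in knockouts. The part of this mix in the level of Xbp1 was not tested. Neutrophil-like and unnamed cells were not measured separately without copied barcodes. Without copied barcodes the Jchain-high libraries overlapped and their log2 difference turned to -0.10, beside -0.77 outside the 4 lymphoid clusters.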

How the results depend on the processing

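Over all cells 415 genes were called, and 961 with DESeq2, 2076 with no filter on low counts, and 324 to 2353 with 1 library left out (1146 without control replicate 1, 2353 without control replicate 2). Of the 8 genes 5 were called higher, 1 without the mature B-like cluster, 0 without the 4 lymphoid clusters, and 7 with any 1 library left out. Without Ms4a1 cells 285 genes were called, and 919 with DESeq2, 2043 with no filter, 445 without copied barcodes, 437 without the 4 lymphoid clusters, and 208 to 2075 with 1 library left out (924 without control replicate 1, 592 without knockout replicate 1). The 1 member called there became 2 with DESeq2, 6 with no filter, 5 without copied barcodes, 0 without the 4 lymphoid clusters, and 3 to 6 with 1 library left out. In pro-B and pre-B-like cells the 0 genes called became 0 to 10 with 1 library left out. The causes were not tested. Leaving out a control library also moved the log2 differences of single members, given beside them, among which Bank1 without Ms4a1 cells was 0.76 to 2.67. With 1 library left out, the log2 difference of Xbp1 over all cells was -0.35 to 0.11, above 0 without knockout replicate 2. In pro-B and pre-B-like cells that of Pou2af1 was -0.35 to 0.42, above 0 without control replicate 2, and that of Mzb1 -0.28 to 0.079, above 0 without control replicate 2 and without knockout replicate 1 (0.046), and also with no filter (0.058). The share of cells with an Ms4a1 UMI differed by 2.14 to 3.57 percentage points with 1 library left out. Same-numbered libraries deviated from their group means with a correlation of 0.0104 over 11539 genes. With 2 libraries per group the crossed pairing gives the exact negative, -0.0104. This value therefore cannot decide whether the numbers pair the libraries. With the replicate number as a block, 980 genes and 7 members were called over all cells, 1113 genes and 6 members without Ms4a1 cells, and 0 genes in pro-B and pre-B-like cells. With a block that pairs libraries by complexity, the crossed pairing, these were 705 genes and 7 members, 571 genes and 3 members, and 2 genes. A fit of pro-B and pre-B-like cells without copied barcodes was not run, with 2 cells left in each control library. Shallow libraries limit shares of cells with a UMI more than summed counts.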
